A study of Mus musculus with 6 samples.

Results

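Liver RNA of Cry-deficient mice was compared between CT14, early in the subjective night, and CT02, early in the subjective day. Circadian time (CT) is given in hours and starts with the subjective day, which puts the samples at 14 h and 2 h. The comparison rests on 2 of the 6 arrays of the study, 1 for each time, and on the 10855 of 12488 probe sets that carry a single gene symbol. All 6 arrays held liver RNA of male mice aged 8 to 10 weeks. The Cry-deficient CT02 mice were described as lacking both Cry1 and Cry2, and the CT14 mice only as Cry-deficient. The other arrays, which are used below for context, came from wild-type mice on a C57BL/6 background and from Clock mutant mice, each at CT14 and CT02. In the sources used here, the strain of the mutants, the Clock allele and any pooling of animals are not given. With 1 array a side no difference could be tested, so sizes are given as descriptions of these arrays.

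The cryptochromes Cry1 and Cry2 repress the transcription factor pair of Clock and Arntl, which drives their own genes, the Per genes and many output genes of the liver. Cholesterol synthesis is one of the pathways known to follow the time of day in rodent liver. Its enzymes are controlled together by SREBP2, a transcription factor released from the endoplasmic reticulum when sterols are scarce, which binds sterol response elements beside the general factors NF-Y (at CCAAT boxes) and Sp1 (at GC boxes). Igfbp1, Onecut1 and the gluconeogenic genes respond to insulin and fasting, and metallothioneins and serum amyloid genes respond to glucocorticoids, metals and inflammatory signals.

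Levels are given in scaled units, that is deposited intensities after the arrays were brought to a common median, and values below 606 units (the floor) were read only as being at the floor. Where the lower of a pair of values was at the floor, the ratio is a lower bound, written as "at least". Of 8251 genes, 4844 had a mean level over the 6 arrays at or above the floor. Among these, 269 genes (5.55%) were at least 2-fold apart between CT14 and CT02, 171 higher at CT14 (3.53%) and 98 lower (2.02%). At any size, 2351 genes (48.5%) were higher and 2378 (49.1%) lower, and 86.0% lay within 1.5-fold. The standard deviation of the log2 ratio was 0.45 over the 4396 genes read above the floor on both arrays. Genes just inside and just outside the threshold differed little: Naa38 read 2163 at CT14 and 1078 at CT02, and Pdia6 9200 and 4601. Of the 11 hepatocyte markers on the array all were kept, and Apoa1 was the member at the floor at CT14 (431 units, against 2122 at CT02). This Apoa1 probe set was also under the floor at CT14 in wild type (63) and Clock mutant (146). The Cry1 and Cry2 probe sets read 4718 and 1344 units at CT14, against 3845 and 1185 at CT02, but their place relative to the deleted sequence is unknown here, and they say nothing about the label.

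Measures of the 2 arrays themselves differed. On the control probes for Gapdh the signal at the 3' end over that at the 5' end was 0.70 at CT14 and 2.37 at CT02. For Actb it was 0.86 at CT14 and 1.70 at CT02. A higher ratio means less signal from the 5' end of the transcript. On the 4 arrays of the other genotypes the Gapdh ratio was 0.56 to 0.72, so the Cry-deficient CT02 array stood apart. The Actb ratio was 0.84 to 2.68 on those 4, highest on the Clock mutant CT02 array. The brightest of 10 equal groups of genes had a median log2 ratio of -0.16, against -0.03 for the next one, so small shifts of abundant gene groups stand beside that value. The error of a single probe set can be read from genes that have several. Over 627 pairs of probe sets of 1 gene, both above the floor, the 2 log2 ratios differed by a median of 0.30, and 8.45% of pairs were over 2-fold apart. Of the 35 readable other probe sets of genes called higher, 26 were higher as well, but only 9 at least 2-fold. The remaining 9 were lower, none of them 2-fold lower, and 33 further probe sets were at the floor on both arrays. For genes called lower, 5 of 9 readable others were lower, 2 of them at least 2-fold. The 4 others were higher, none of them 2-fold higher, and 18 further probe sets were at the floor on both arrays.

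**Figure D1:**
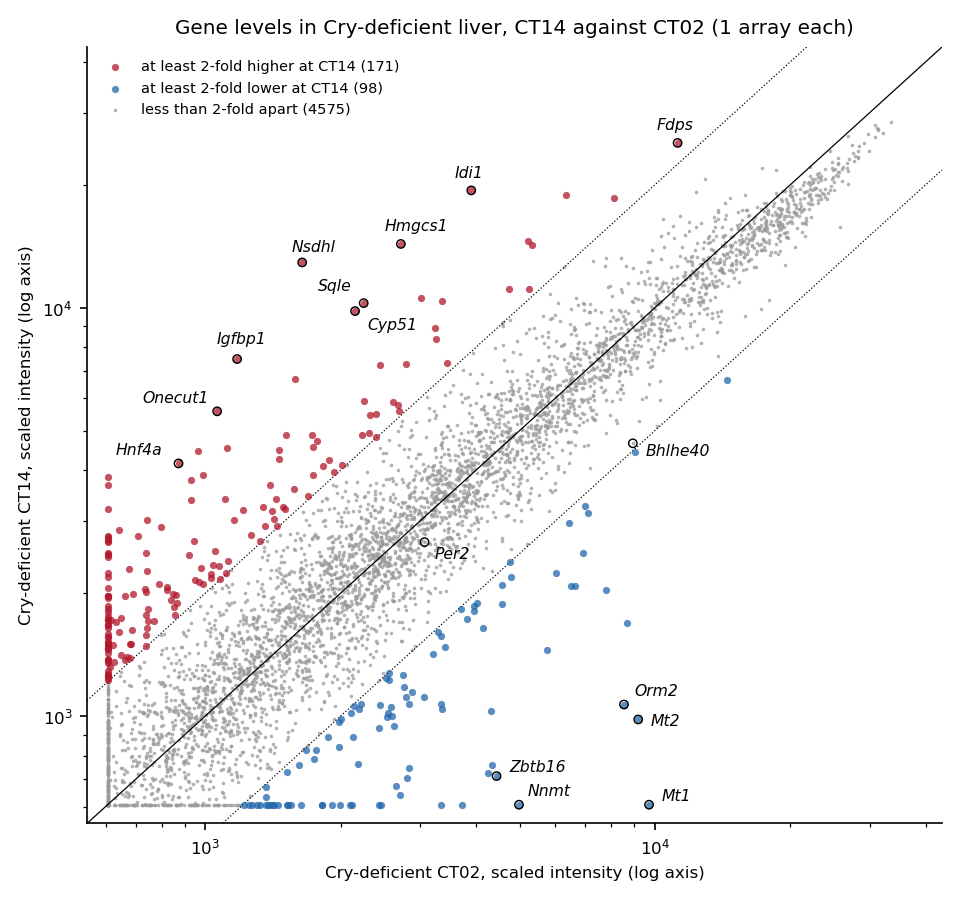
Level of each of the 4844 genes at CT14 (vertical) against CT02 (horizontal) in Cry-deficient liver, in scaled units on log axes, with values under the floor drawn at 606. Dotted lines mark 2-fold: 171 genes lie above the upper line, among them the sterol genes Nsdhl and Hmgcs1, and 98 below the lower line, among them Mt1, Mt2 and Orm2.

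Of the 48 gene lists examined, cholesterol synthesis had the median ratio furthest from 0, and all 16 of its measured genes were higher at CT14. The sequences upstream of 4 of its genes are shown, with elements through which the pathway is known to be controlled. A CCAAT box was found in all 4, and the sterol response element, in the letters searched, in that of Hmgcs1 alone. Each run is the 250 bases before the start of transcription, on the gene's strand, from RefSeq (GRCm38.p6). Capitals mark CCAAT (or ATTGG, its reverse) and the sterol response element TCACNCCAC, searched on both strands, with N for any base. The windows are chr13:119690101-119690350 (plus strand) for Hmgcs1, chr13:8885356-8885605 (plus) for Idi1, chr5:4104698-4104947 (minus) for Cyp51 and chrX:72918271-72918520 (plus) for Nsdhl.
Hmgcs1: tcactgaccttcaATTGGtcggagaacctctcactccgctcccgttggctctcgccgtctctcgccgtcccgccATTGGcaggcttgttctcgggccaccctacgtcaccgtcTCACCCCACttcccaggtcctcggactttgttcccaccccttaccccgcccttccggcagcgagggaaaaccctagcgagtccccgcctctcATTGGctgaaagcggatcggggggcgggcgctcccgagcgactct
Idi1: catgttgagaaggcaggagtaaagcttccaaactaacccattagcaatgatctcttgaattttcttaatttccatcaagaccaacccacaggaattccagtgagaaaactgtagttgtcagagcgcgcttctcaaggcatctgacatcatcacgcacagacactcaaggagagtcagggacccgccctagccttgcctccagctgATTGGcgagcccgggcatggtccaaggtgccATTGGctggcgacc
Cyp51: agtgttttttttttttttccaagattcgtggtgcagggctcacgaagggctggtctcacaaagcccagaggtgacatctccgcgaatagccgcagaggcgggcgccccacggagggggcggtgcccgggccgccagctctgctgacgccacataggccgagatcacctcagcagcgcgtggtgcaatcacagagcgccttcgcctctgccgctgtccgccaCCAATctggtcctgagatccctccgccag
Nsdhl: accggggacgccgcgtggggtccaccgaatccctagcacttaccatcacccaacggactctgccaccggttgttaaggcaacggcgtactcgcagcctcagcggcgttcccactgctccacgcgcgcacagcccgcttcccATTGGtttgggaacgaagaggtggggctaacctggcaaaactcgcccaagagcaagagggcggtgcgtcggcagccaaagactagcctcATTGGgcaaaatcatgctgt

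CCAAT was found upstream of all 13 of the 16 genes that the promoter table holds, in 13 of their 15 windows, against 33.8% of the 32851 windows in the table and 34.9% of the 5033 windows of kept genes. GGGCGG, the GC box, was found in 14 of the 15 windows, against 32.7% of all windows and 55.8% of those of kept genes. Its letters can overlap those of an ATTGG at a run of G. The sterol response element, in the letters searched, was found upstream of Hmgcs1 alone among the 13 genes, 137 bases before its start. It was found in 1.05% of all windows and 1.21% of those of kept genes. For genes called higher it was in 1.08% of 186 windows, and for genes called lower in 4.17% of 96. These matches are descriptions of sequence and not of binding.

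The first steps build isoprenoid units, and 3 of the 4 genes read there were past 2-fold. Hmgcs1, which makes HMG-CoA, read 14318 units at CT14 and 2721 at CT02. Idi1, the isomerase of the isoprenoid unit, read 19364 and 3902 units at the same times. Mvd, which makes that unit, read 2184 at CT14 and lay under the floor at CT02 (375), a ratio of at least 3.60-fold. Mvk, the kinase between Hmgcs1 and Mvd, read 2282 at CT14 against 1626 at CT02, which was short of 2-fold.

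The joining and cyclising enzymes were also higher at CT14. Fdps, which makes farnesyl diphosphate, read 25308 units at CT14 and 11225 at CT02, and a second probe set gave a log2 ratio of 1.20 beside 1.17. Fdft1, the squalene synthase gene, was 1.84-fold higher. Sqle, the squalene epoxidase and a rate-controlling step, read 10257 at CT14 against 2249 at CT02. Lss, which closes the ring, read 4883 at CT14 against 1728 at CT02.

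The enzymes that act after the ring is closed ranged widely. Nsdhl, a dehydrogenase that acts on the methyl groups of the sterol ring, had the largest measured ratio of the genes higher at CT14 (12901 at CT14 and 1642 at CT02), and its other probe sets had log2 ratios of 2.32 and 1.92. Cyp51, the lanosterol demethylase, read 9805 units at CT14 and 2152 at CT02. Msmo1, the methyl oxidase that acts before Nsdhl, read 14261 at CT14 and 5318 at CT02. Hsd17b7, the ketoreductase of the same demethylation, was at least 2.13-fold higher, and Dhcr7, a reductase of the last steps, at least 3.24-fold. Sc5d (1.96-fold), a desaturase gene, Ebp (1.17-fold), an isomerase gene, and Tm7sf2 (1.05-fold), a reductase gene that acts after Cyp51, were not past 2-fold. In all, 11 of the 16 genes (the background was 3.53%) were at least 2-fold higher, with a median log2 ratio of 1.46 against 0 over all kept genes. Ggps1, which takes farnesyl diphosphate away from sterols, was at the floor on both arrays.

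The level at CT14 was high against the whole series. The level at CT02 was low for Hmgcs1 alone, where that array was the lowest of the 6. It lay over 2-fold below the median of the other genotypes' 4 arrays. At CT14 and CT02 Hmgcs1 read 2766 and 4908 units in wild type, the first close to the 2721 of Cry-deficient CT02. The Clock mutant read 9399 and 14349. In 13 of the 16 genes the Cry-deficient CT14 array was the highest of all 6, against 12.2% of kept genes. The median distance from the other genotypes' 4 arrays was 1.44 on the log2 scale at CT14 and 0.25 at CT02. Sqle, for example, read 890 and 773 units in wild type at CT14 and CT02, and Nsdhl 1487 and 1649. The median log2 ratio of the same 16 genes was 0.07 on the wild-type arrays and -0.62 on those of the Clock mutant.

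**Figure D2:**
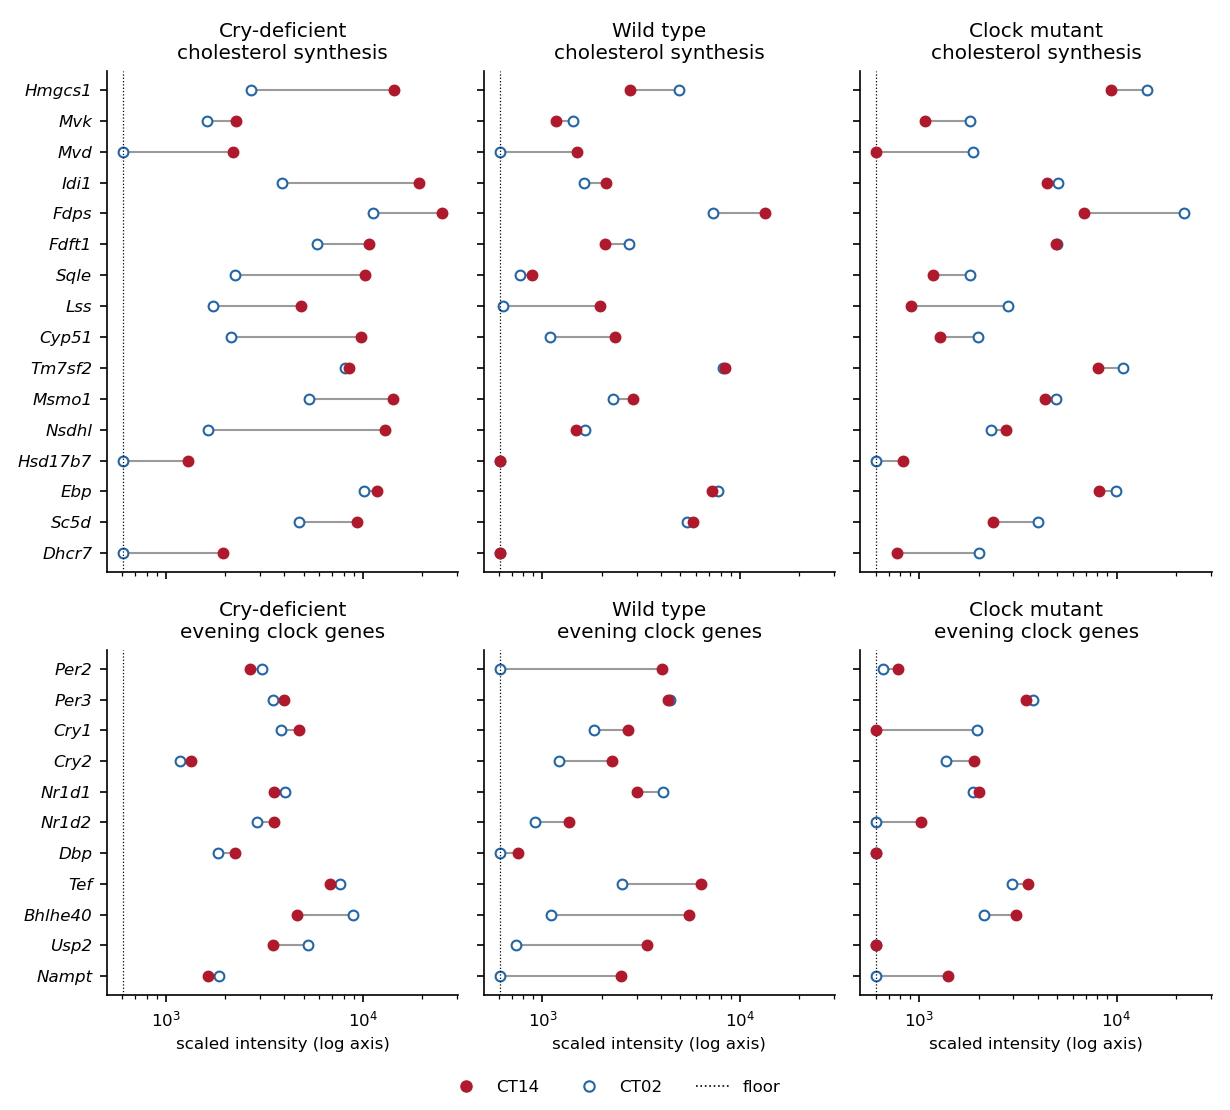
Levels of the 16 cholesterol synthesis genes (top) and 11 evening clock genes (bottom) at CT14 (filled) and CT02 (open), in scaled units on a log axis, with 1 array per point and values under the floor drawn on the dotted line. The sterol genes lie right of their CT02 points in Cry-deficient liver for all 16 genes, while the evening clock genes that are wide apart in wild type (Per2, Bhlhe40, Usp2) are close together or turned round in Cry-deficient liver.

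The genes read around the pathway mostly did not share these ratios. Most of a list of sterol regulation and uptake was not measured: of 22 genes named, 9 were on the array and 8 kept. Of these 8 genes 5 were higher and 3 lower at CT14, and none was 2-fold apart on its brightest probe set. A second probe set of Abca1, a cholesterol exporter, had a log2 ratio of 1.14 beside 0.46. Srebf1, which encodes the SREBP form best known for fatty acid synthesis, read 11820 at CT14 and 9688 at CT02, and Scarb1, the receptor for high-density lipoprotein, 12529 and 8945. Abcg1, a sterol exporter, had a log2 ratio of -0.55. Insig1, which holds SREBP in the endoplasmic reticulum, was at the floor on both arrays. Lipogenesis, with 19 genes, had a median of 0.00. Its gene past 2-fold was Me1, a source of NADPH (1675 at CT14, under the floor at CT02 and above it on the other 4 arrays). Fasn, the fatty acid synthase gene, read 14036 at CT14 against 10460 at CT02, and Mid1ip1, which activates acetyl-CoA carboxylase, had a log2 ratio of -0.58. Slc25a1, the mitochondrial citrate carrier that supplies acetyl-CoA for both pathways, was 2.79-fold higher (14570 at CT14 and 5222 at CT02, and a log2 ratio of 1.12 on a second probe set). It read 11612 to 14538 units on the 4 other arrays, so the CT02 array was the low one.

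Among clock genes, those of a list of evening genes were close at the 2 times. None of the 11 kept was 2-fold apart, and 5 were higher and 6 lower at CT14. Cry1 and Cry2, the targeted genes, are among the 11 and among the 5 higher (log2 ratios 0.30 and 0.18). The place of their probe sets relative to the deleted sequence is unknown here. The median log2 ratio was -0.18, against 0.89 for wild type and 0.26 for Clock mutant. The wild-type median is the value of Cry2 itself. In wild type 9 of the 11 were higher at CT14, while Nr1d1 and Per3 had log2 ratios of -0.45 and -0.03. In Cry-deficient liver Per2, a repressor of the clock, read 2665 units at CT14 and 3072 at CT02, both above the floor. Wild type read 4058 and 251. Bhlhe40, a repressor that competes at the same sites, came closest to a difference, with 4652 at CT14 and 8924 at CT02, the opposite of wild type (5564 and 1111). Usp2, a deubiquitinase gene, read 3514 at CT14 and 5264 at CT02, but its second probe set gave a log2 ratio of -0.01. Dbp (2259 at CT14 and 1836 at CT02) and Nr1d2 (3541 and 2906), whose products act on D-boxes and on sites of the Ror family, were read above the wild-type arrays at both times. Over the 11 genes the median distance from the 4 other arrays was 1.07 at CT14 and 1.25 at CT02. Per1 was too dim to be kept.

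Of a list of morning clock genes, Clock itself was past 2-fold, with 3025 units at CT14 and 1155 at CT02. Arntl, its partner, read 1097 at CT14 and 1459 at CT02, a log2 ratio of -0.41 beside -1.28 in wild type. Nfil3, which opposes Dbp at D-boxes, had a log2 ratio of 0.55 and one of -0.04 on a second probe set, and Rora, an activator of Arntl, one of -0.33. Npas2 lay under the floor on every array. Fbxw11, a ubiquitin ligase subunit that acts on Per proteins, was 2.66-fold higher on its brightest probe set, but another gave -0.47. The E-box CACGTG, the site of the pair of Clock and Arntl, was found in 13.98% of the 186 upstream windows of genes called higher, in 4.17% of the 96 windows of genes called lower and in 8.74% of those of kept genes. The D-box TTATGNAA was found in 0.54%, 1.04% and 1.81% of the same sets.

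Igfbp1, a binding protein that limits free insulin-like growth factor and is induced by fasting, went opposite ways in Cry-deficient liver and in the other genotypes. It read 7482 units at CT14 and 1176 at CT02 in Cry-deficient liver, against 188 (under the floor) and 9554 for wild type and 1652 and 4284 for Clock mutant. Its second probe set was at the floor on both arrays. The insulin response element through which insulin is known to lower its transcription lies in its upstream window (chr11:7197537-7197786, plus strand, GRCm38.p6, RefSeq), where capitals mark CAAAANAA on either strand.
Igfbp1: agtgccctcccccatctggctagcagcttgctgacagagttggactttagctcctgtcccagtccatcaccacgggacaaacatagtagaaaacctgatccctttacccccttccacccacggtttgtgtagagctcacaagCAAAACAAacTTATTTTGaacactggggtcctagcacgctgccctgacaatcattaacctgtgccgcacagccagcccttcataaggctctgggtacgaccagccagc
CAAAANAA was found in 7.16% of all 32851 windows and in 5.07% of those of kept genes. Here it occurs as a pair, 108 and 98 bases before the start, on opposite strands and with no shared base.

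Of 18 insulin and fasting-responsive genes, Igfbp1 included, 5 were at least 2-fold higher (the background was 3.53%) and none lower, with a median of 0.10. They were Igfbp1, Onecut1, Hnf4a, Asns and Akt2. Onecut1, a liver transcription factor that growth hormone and insulin regulate, read 5572 units at CT14 and 1062 at CT02. It was 2-fold higher at CT14 in all 3 genotypes, with log2 ratios of 2.39 in Cry-deficient, 1.27 in wild-type and 1.39 in Clock mutant liver. Hnf4a, a master regulator of hepatocyte genes, read 4154 at CT14 and 871 at CT02, whereas the 4 other arrays read 4042 to 6563, so the CT02 array was the low one. Asns, the asparagine synthetase gene, read 2908 at CT14 against 797 at CT02. Akt2, the kinase that carries the insulin signal in liver, was 2.04-fold higher and went just under 2-fold (log2 ratio 0.97) after quantile or lowess normalization. Pck1 and G6pc, the control points of glucose output, had log2 ratios of -0.36 and -0.20. Of 10 gluconeogenic genes 9 were lower at CT14, none of them 2-fold, where 49.1% of all genes were lower. The median of these bright genes was -0.19, beside -0.16 for the brightest of 10 groups of genes.

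Targets of growth hormone signalling went both ways. Socs2 and Cish, feedback inhibitors of the growth hormone receptor, read 2532 and 3192 units at CT14, against 1050 and 1209 at CT02, and Onecut1, given above, was higher too. Bcl6, a repressor that growth hormone lowers, read 1447 at CT14 and 5737 at CT02. The Clock mutant had the same directions for Socs2, Cish and Bcl6, with log2 ratios of 2.68, 1.18 and -2.34, and wild type had 1.22, 0.53 and -0.46. Of 12 genes of the list 3 were at least 2-fold higher and 1 lower (the background was 3.53% and 2.02%), and at any size 4 were higher and 7 lower, with a median of -0.08. Igf1, the main hormone that growth hormone induces in liver, read 14782 at CT14 and 18723 at CT02, and 16056 and 15401 on a second probe set.

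Among glucocorticoid-responsive genes the members went both ways, 3 of 18 at least 2-fold higher and 4 lower, against 3.53% and 2.02% of all kept genes. Zbtb16, a zinc-finger gene that glucocorticoids induce, read 712 units at CT14 and 4441 at CT02, while wild type read 2085 and 1928. Gadd45g, a growth arrest gene, read 2754 at CT14 and 708 at CT02. The metallothionein genes, which bind zinc and copper, were also among the genes lower at CT14. Mt2 read 980 at CT14 and 9174 at CT02, and Mt1 was below 0 (-712) at CT14 and at 9698 at CT02, a ratio that is only a lower bound. In the Clock mutant the order was turned round (Mt2 14582 at CT14 and 1558 at CT02), and in wild type Mt2 read 1471 and 1261. High metallothionein therefore stood on 1 array of each mutant pair, at different times.

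Acute-phase genes, most of which the liver raises in inflammation, were in the main lower at CT14 than at CT02. Of 33 kept, 31 were lower at CT14 and 2 higher, where 49.1% of all genes were lower, and 6 were at least 2-fold lower (the background was 2.02%). The median log2 ratio was -0.30, against -0.02 for wild type and -0.27 for Clock mutant. Other lists of bright genes were mostly lower as well. The counts were 28 of 31 for complement and coagulation, 10 of 11 for hepatocyte markers and 18 of 21 for cytosolic ribosomal proteins. For oxidative phosphorylation 38 of 54 were lower. The acute-phase list also holds Alb and Ttr, albumin and transthyretin, which fall in inflammation. Their log2 ratios of -0.54 and -0.07 had the same direction as most of the list. The genes at least 2-fold lower were, besides Mt1 and Mt2, Orm2, Saa2, Cebpd and Saa3. Orm2, an orosomucoid gene, read 1066 units at CT14 and 8530 at CT02, with 954 to 3242 on the 4 other arrays. Saa2, a serum amyloid gene, read 2031 at CT14 and 7783 at CT02, and its second probe set gave a log2 ratio of -1.95. Cebpd, a transcription factor of the acute phase, was 2.05-fold and Saa3 2.03-fold lower. Genes of other abundant plasma proteins were short of 2-fold: Itih4, an inhibitor chain, had a log2 ratio of -0.41, Orm1 -0.30, Fgb, of fibrinogen, -0.10, and Hpx, which carries heme, -0.11 (-0.38 on a second probe set), beside the -0.16 of the brightest genes. Serpina3n (-0.73), Hp (-0.63), Il1r1 (-0.61) and Lbp (-0.59) lay between. Crp, Cp, Hamp and the mannose-binding lectin genes ranged from -0.43 to -0.17. Saa4, whose product is made without inflammation, had a ratio of 0.74, and Il6ra, the receptor for interleukin 6, one of 0.29.

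Macrophage and Kupffer cell markers were lower at CT14 in 15 of 18 genes, where 49.1% of all genes were lower, and 3 were at least 2-fold lower (the background was 2.02%). The median log2 ratio was -0.43, against -0.05 for wild type and 0.06 for Clock mutant. Marco, a scavenger receptor, read 745 units at CT14 and 2831 at CT02, and was under the floor on the 4 other arrays. Tyrobp, a signalling adaptor of myeloid cells, read 1072 at CT14 and 3336 at CT02, and Cd5l, a protein secreted by macrophages, 2973 and 6447. Csf1r (-0.71), Lyz2 (-0.69), Cd68 (-0.66), Ctss (-0.81) and Mpeg1 (-0.95) were lower by less, while Clec4f, the marker of Kupffer cells in mice, had a log2 ratio of -0.22 and Adgre1 (F4/80) one of -0.32. The CT02 array was the highest of the 6 in 12 of the 18 genes, against 18.7% of kept genes. The summed level of the 18 was 59804 at CT14 and 78542 at CT02, against 58130 and 59259 in wild type. C1qa broke from its partners: it read 4869 at CT14 and 1508 at CT02, whereas C1qb and C1qc, which join it in 1 complex, had log2 ratios of -0.53 (0.13 on a second probe set) and 0.17. Fcer1g, Lgals3 and Aif1 were at the floor on both arrays. In bulk liver, fewer cells of a type and less RNA per cell cannot be told apart.

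Markers of other cells did not all follow. B cell markers were lower at CT14 in 5 of 6 genes, where 49.1% of all genes were lower. At least 2-fold lower were 2 (the background was 2.02%): Pax5, at 1020 units at CT14 and 2547 at CT02, and Cxcl13, a chemokine that attracts B cells, at 1027 and 4307. A second Pax5 probe set was at the floor on both arrays. Short of 2-fold were Ighm (-0.71, and at least 0.20 on another probe set), Cd79b (-0.38), Ms4a1 (-0.28) and Ly6d (0.04). Endothelial markers had a median of -0.24 (Cdh5 -0.65, Stab1 -0.40) and wild type one of -0.38. Stellate cell and matrix markers went both ways, 16 of 25 higher and 8 lower, with a median of 0.07. None was 2-fold higher, and 2 were at least 2-fold lower (the background was 2.02%). These were Sdc4, a heparan sulfate proteoglycan, at 1686 at CT14 and 8667 at CT02, and Cnn1, a smooth muscle gene, at 703 and 2815. Of the collagen genes, Col1a1 (log2 ratio at least 0.77) and Col4a1 (0.65) were higher and Col6a1 (-0.65) was lower. Neutrophil markers numbered 4, none of them 2-fold apart. The part that cell content, or the 3' to 5' ratios given above, had in the acute-phase and macrophage values was not tested.

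**Figure D3:**
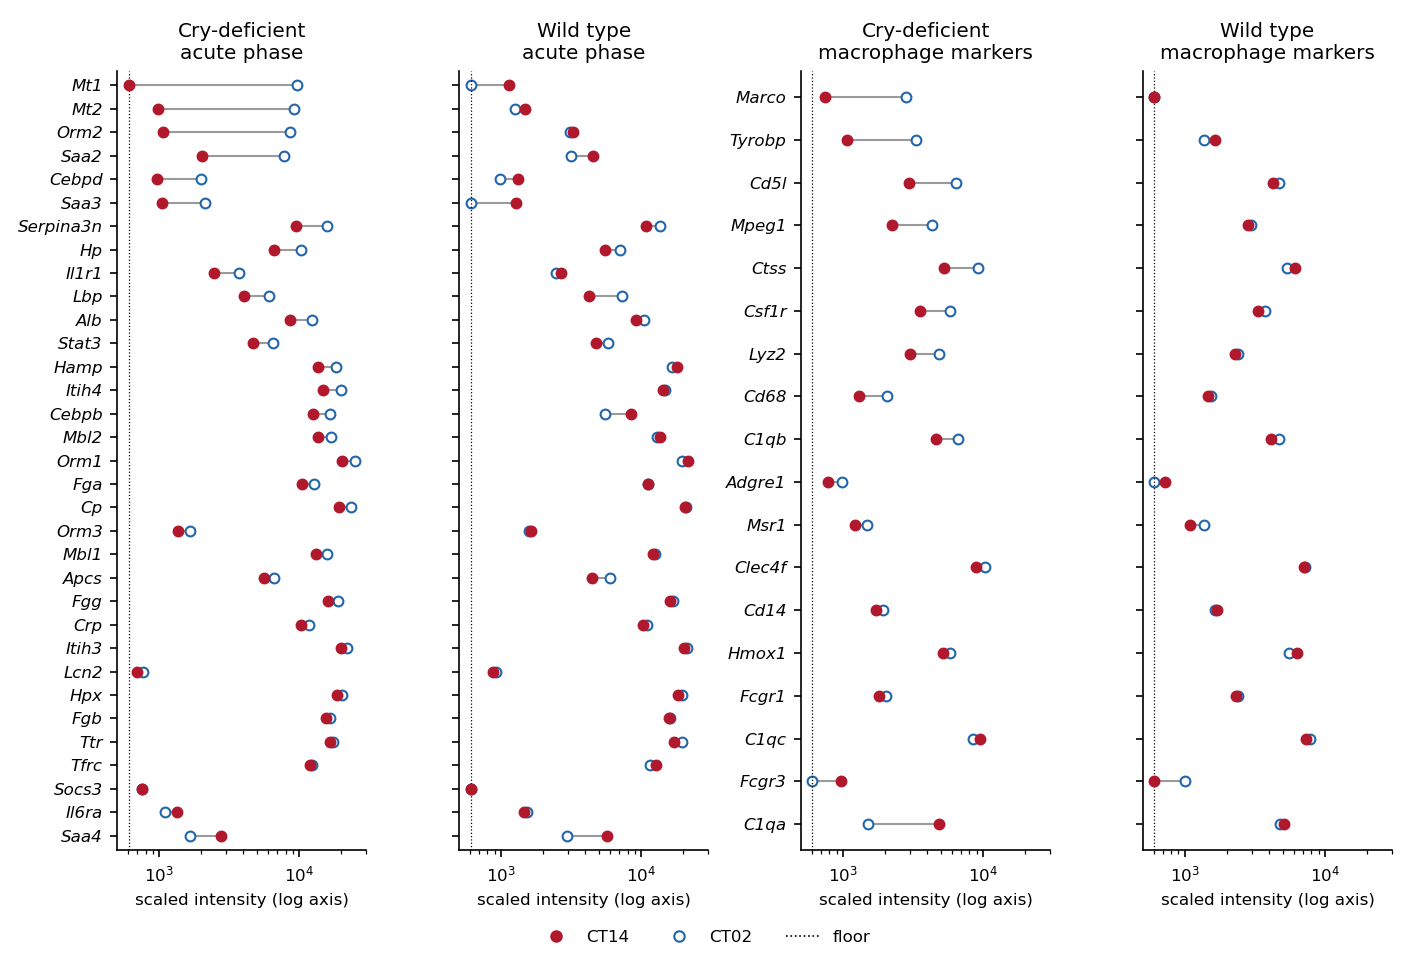
Levels of 33 acute-phase genes and 18 macrophage markers at CT14 (filled) and CT02 (open) in Cry-deficient and wild-type liver, in scaled units on a log axis, 1 array per point. In Cry-deficient liver the CT02 point lies to the right for 31 and 15 of these genes, widest for Mt1, Mt2 and Orm2, and in wild type the points mostly lie close together.

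Stress pathways that separated the times in wild type did so less in the Cry-deficient arrays, though the difference itself could not be tested. For the unfolded protein response 14 of 22 genes were higher at CT14, with a median of 0.12 against 0.55 in wild type. Ppp1r15a, which restores translation after stress, read 1604 units at CT14 and 643 at CT02. Pdia6, a disulfide isomerase gene, was just under 2-fold on its brightest probe set and had log2 ratios of 1.67 and 1.76 on the others. Creld2 read 8501 at CT14 and 5617 at CT02, against 14476 and 3230 in wild type, and Ddit3 was under the floor at CT14 and at 924 at CT02, against 3092 and 257 in wild type. Heat shock genes had a median of -0.13 against 0.58 in wild type. Hspa1b, the inducible HSP70 gene, read 1263 at CT14 and 2757 at CT02 in Cry-deficient liver and 10370 and 2276 in wild type. Its co-chaperone gene Bag3 read 1073 and 2218 (log2 ratio -0.54 on a second probe set), whereas Hsph1 (log2 ratio 0.56) and Hspa4 (0.51) were higher.

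Of the genes of translation, Cars, a tRNA synthetase gene, was 2.47-fold higher at CT14 (2031 and 821 units) and Hars 2.26-fold lower (1421 and 3204). The ratios of Wars and Eif2s2 depended on the probe set: 1.01 and 1.26 on the brightest, and -0.34 and -0.07 on another. Growth and signalling genes past 2-fold were Dusp1, a phosphatase gene that stress induces (5481 at CT14 and 2398 at CT02), the cyclin genes Ccnd1 and Ccnd3 (at least 2.42-fold and 2.71-fold higher, with a log2 ratio of -0.06 on a second Ccnd1 probe set) and the kinase genes Plk2 and Plk3 (2.12-fold and 2.14-fold lower). Vegfa, an endothelial growth factor gene, read 4482 at CT14 and 1459 at CT02, and 4993 and 2291 in wild type.

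The core functions of hepatocytes differed little between the times. Of 25 genes of a P450 list, which holds Alas1 and Ahr beside P450 genes, 19 were lower at CT14, with a median of -0.26. Across all genes 49.1% were lower. Of the 25, 1 was at least 2-fold lower (the background was 2.02%), Cyp2b9 (1042 units at CT14 and 3360 at CT02). Conjugation genes had a median of -0.21, with Gstm6, a glutathione transferase gene, at 672 and 2647. Of 23 genes of the urea cycle and amino acid catabolism 17 were lower, with a median of -0.22, and Ass1, which makes argininosuccinate, was 3.19-fold lower (2079 and 6631), whereas Cps1, the entry enzyme, had a log2 ratio of -0.41. Among bile acid genes Amacr, a racemase that acts on branched chains, was 2.69-fold lower, and Cyp7a1, the rate-limiting enzyme, read 2901 at CT14 and 2185 at CT02. Pltp, which transfers phospholipids between lipoproteins, read 1875 at CT14 and 4572 at CT02. Complement and coagulation genes had a median of -0.23, and so had cytosolic ribosomal protein genes, with no ribosomal gene past 2-fold. Oxidative phosphorylation genes had one of -0.11 with none of 54 past 2-fold, and the sign turned after quantile (0.034) and lowess (0.023) normalization. Fatty acid oxidation genes had a median of -0.17, with no member past 2-fold. Periportal markers had one of -0.32 and hepatocyte markers one of -0.28. Beside these medians stand -0.16 for the brightest of the 10 groups of genes and -0.03 for the next one, which is the typical group of the P450, conjugation, fatty acid oxidation and periportal lists.

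**Figure D4:**
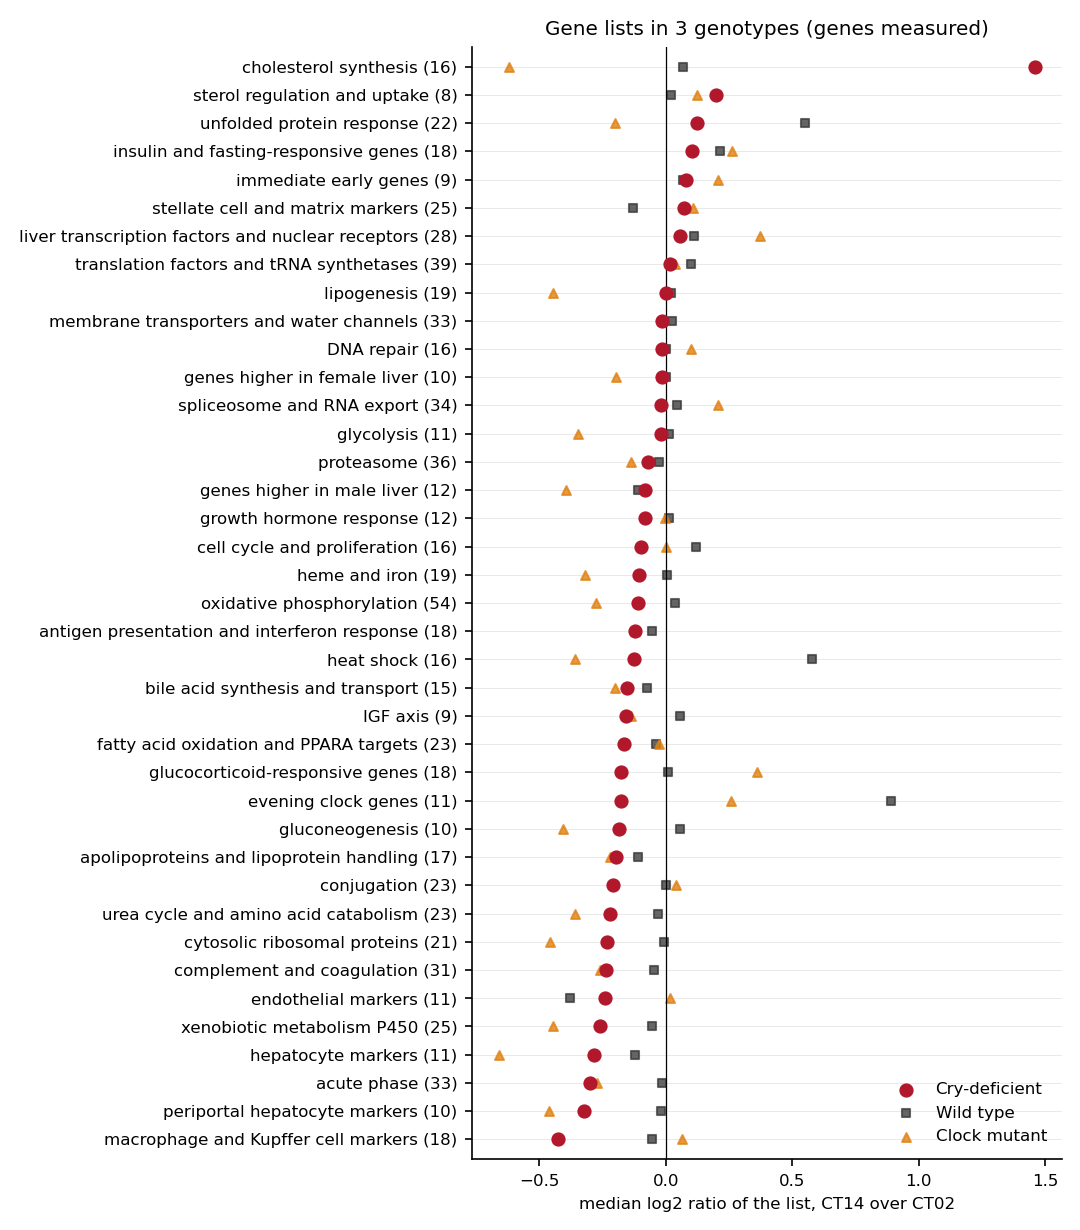
Median log2 ratio of CT14 over CT02 for each gene list with at least 8 kept genes, in Cry-deficient, wild-type and Clock mutant liver, with the number of genes in parentheses and lists ordered by the Cry-deficient value. Cholesterol synthesis stands apart at 1.46 and macrophage markers are lowest at -0.43.

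The 269 genes at least 2-fold apart divided by which of the 2 arrays lay away from the 4 arrays of the other genotypes. Of the 171 genes higher at CT14, 85 (49.7%) had the CT02 array at least 2-fold from the median of the 4 and the CT14 array within 2-fold of it, and 31 (18.1%) had the CT14 array away alone. Of the 98 lower genes, 41 had the CT02 array away alone and 19 the CT14 array. Against the wild-type mean alone the counts for the higher genes were 89 and 28, and for the lower 43 and 22. Over all kept genes the CT02 array was 2-fold above the 4 others in 156 genes and 2-fold below in 171, and the CT14 array in 120 and 77.

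The sterol genes belong to the second kind: 9 of the 11 called had the CT14 array away alone, among them Nsdhl, Idi1, Cyp51 and Fdps, as did Onecut1 and Pim3, a kinase gene. Hnf4a, Slc25a1 and C1qa, given above, were low on the CT02 array alone, and so were several genes with large ratios. P2rx7, an ATP-gated channel gene, read 4450 units at CT14 and 965 at CT02, with 2572 to 3066 on the 4 others. Dsg2, a desmosomal cadherin gene, read 6675 and 1583, with 4359 to 9105 on the others, and Get3, which targets tail-anchored proteins to membranes, 3778 and 929, with 2261 to 3769. Slc25a10, the dicarboxylate carrier, and the zinc transporter gene Slc39a4 were 2.60-fold and 2.76-fold higher at CT14 in the same way, the second with a log2 ratio of 0.74 on another probe set. Of the 2 Cry-deficient arrays, CT02 alone was high for Mt1, Mt2, Orm2, Saa2, Marco, Tyrobp and Sdc4. For Mt1 and Mt2 the Clock mutant CT14 array read higher still (13356 and 14582 units, against 9698 and 9174). The 3' to 5' ratios of Gapdh and Actb were higher on the CT02 array, and their part in these genes was not tested. Map11 and Dhodh, also low on the CT02 array alone, had another probe set that gave log2 ratios of -0.23 and 0.00.

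**Figure D5:**
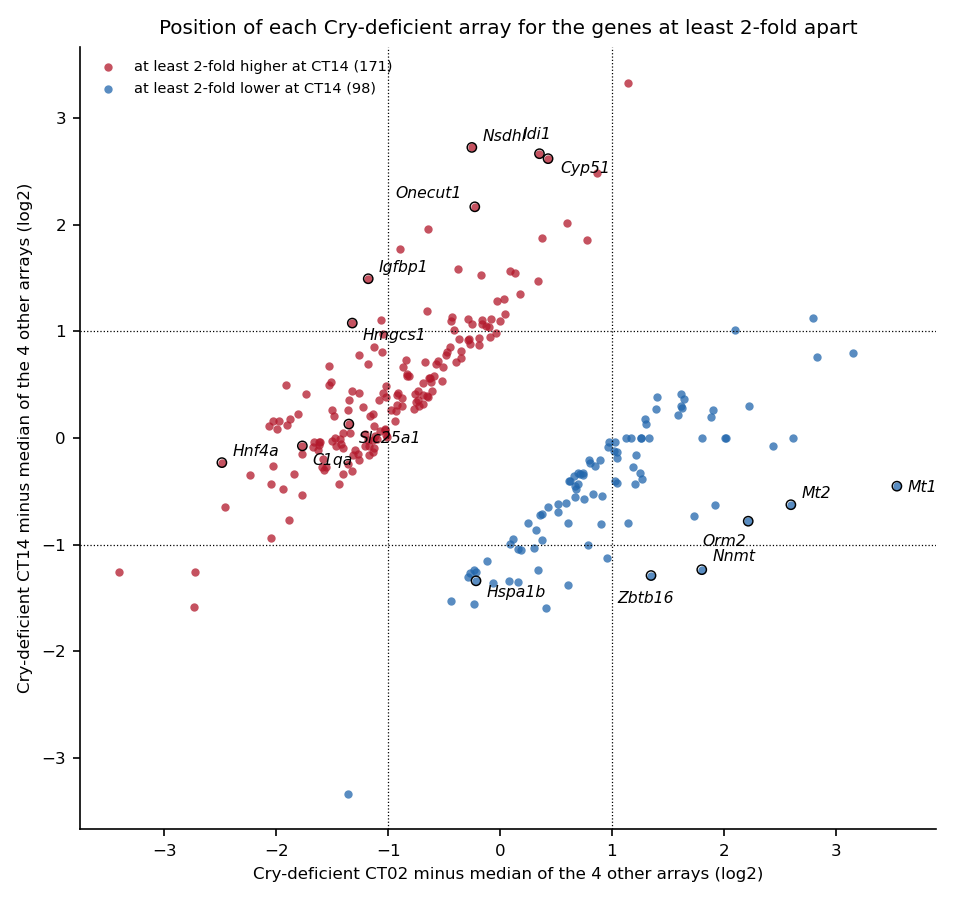
Position of each Cry-deficient array for the 269 genes at least 2-fold apart, as log2 distance from the median of the 4 other arrays, CT14 on the vertical and CT02 on the horizontal axis. Nsdhl, Idi1 and Onecut1 lie high at a CT02 distance near 0, while Hnf4a and C1qa lie far left and Mt1, Mt2 and Orm2 far right, at CT14 distances under 1.

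In wild type 4.56% of kept genes were at least 2-fold apart (2.48% higher and 2.09% lower at CT14), and in the Clock mutant 7.74% (4.31% and 3.43%). Genes past 2-fold in both Cry-deficient and wild-type liver numbered 29, of which 14 went the same way. The 12 higher in both were Abcb9, Ccnd1, Cyp51, Lss, Mvd, Onecut1, Pvalb, Rangap1, Serpina12, Socs2, Sypl2 and Vegfa, and the 2 lower in both were Arap3 and Cnn1. Serpina12, an adipokine gene also known as vaspin, read 2846 units at CT14 and 643 at CT02 in Cry-deficient liver and 8434 and 3829 in wild type. Onecut1, Pvalb and Socs2 were at least 2-fold higher at CT14 in the Clock mutant as well. Of the genes at the far ends that are read only as bounds, Pim3 (3672 at CT14) and Gm34703 (3839) were under the floor at CT02. Nnmt, which methylates nicotinamide, was under the floor at CT14 and at 4982 at CT02, against 5267 and 3362 in wild type, a ratio of at least 8.22-fold. Igkv6-23, an immunoglobulin light chain segment, read 283 at CT14 and 3721 at CT02, and was under the floor on the 4 other arrays.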

How the data were processed

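The authors deposited intensities, whole numbers above and below 0, for the probe sets of 6 one-colour arrays; the steps behind them are, in the sources used here, not given. Each array was divided by its median ratio to the 6 arrays' geometric mean, taken over 6065 probe sets that were positive on all arrays and at or above the median level, a log2 offset of 0.20 for Cry-deficient CT14 and -0.00 for CT02. Values below the pooled median (606) were set to that floor. Probe sets were named from the platform table, with 10839 matched to RefSeq (GRCm38.p6) by gene number; 396 with several symbols, 1237 with none and the 66 controls were left out. A gene was read on its brightest probe set, and kept if its mean over the 6 arrays reached the floor (4844 of 8251).

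No test was made, since each group is 1 array. The number of arrays limits the precision, and 21.5% of the CT14 and 23.4% of the CT02 values lay at or below 0. Genes named were Cry1, Cry2 and 4 marker genes, the 15 largest ratios and 5 largest bounds in each direction, members of the clock, sterol, acute-phase and macrophage lists, the members of other lists with the widest ratios (up to 6 a list), and genes past 2-fold in both Cry-deficient and wild-type liver; others, such as Naa38, were chosen after their values were seen, as was the comparison of each array with the 4 others. The members and the 48 gene lists were chosen with earlier results of these data known. The procedure was tested on simulated data. Alternatives were another scaling, floor, filter, probe set rule, set of arrays or threshold. The work used Python 3.11.15 with pandas 2.3.3, numpy 2.4.6 and statsmodels 0.14.6.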

Additional observations from a re-analysis of the deposited data

Results flagged for a closer look

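Past 2-fold in both genotypes, 15 genes went opposite ways between CT14 and CT02 in Cry-deficient and wild-type liver, each on 1 array a side, and the difference between the genotypes was not tested. In Cry-deficient liver 7 of them were higher at CT14 and lower in wild type. The log2 ratios of Igfbp1 were 2.67 in Cry-deficient liver and at most -3.98 in wild type. Aqp8, a water channel gene, had 1.15 and -2.01, and Ceacam1, which takes part in insulin clearance, 1.57 and -1.02, with 0.47 on a second probe set in Cry-deficient liver. Cdh3, a cadherin gene, had at least 1.62 and at most -1.90, but a second Cdh3 probe set gave -0.84 in Cry-deficient liver. Ccng2, a cyclin gene, had 1.02 and -1.16. Ddx46, a splicing helicase gene, had at least 1.31 and at most -1.04, and Wsb1, a ubiquitin ligase subunit gene, 1.14 and at most -1.32.

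The other 8 were lower at CT14 in Cry-deficient liver and higher in wild type. Hspa1b had log2 ratios of -1.13 and 2.19. G0s2, an inhibitor of lipolysis, had -1.33 in Cry-deficient liver (1644 units at CT14 and 4136 at CT02) and 1.62 in wild type. The acute-phase gene Saa3 had -1.02 and at least 1.07, the transporter gene Abcc5 -1.08 and at least 1.72, and the phosphatase gene Dusp2 -1.01 and 1.26. Kcnd3, a potassium channel gene, had at most -1.07 and 1.33, Plp2 -1.13 and 1.07, and Lhb -1.02 and 1.22.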

How the results depend on the processing

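The count of 269 genes (171 higher, 98 lower) moved by over 1.5 times with the threshold, the floor and the filter. It was 74 at 3-fold (47 higher, 27 lower), 1158 with the floor at the 25th percentile (686 and 472) and 86 with a filter at the 75th percentile (60 and 26). Without rescaling the median over all genes was 0.20, and 276 were higher and 61 lower, so that 81.9% were higher against 63.6% after scaling. With quantile, lowess and 4 other settings the total lay between 240 and 294. List medians were taken relative to the median of all genes. Of 29 lists whose median lay at least 0.1 from 0, the sign changed in some setting for 3: oxidative phosphorylation (0.034 with quantile and 0.023 with lowess normalization), IGF axis (0.060 and 0.030) and morning clock genes (-0.040 on probe sets with no extra letter). Of all 47 lists a pair moved by over 0.30: the clock kinases and ubiquitin ligases (3 genes) to 0.68 with the mean of all probe sets, and immediate early genes to -0.51 on probe sets with no extra letter in their names. Of 101 named genes past 2-fold, 3 changed sign with scaling and filter from the Cry-deficient arrays alone, where another probe set became the brightest: Eif2s2 (-0.061), Wars (-0.33) and Cdh3 (-0.84). Wars was at -0.34 on probe sets with no extra letter, where Dhodh was at 0.00. Without rescaling 13 of the 101 were no longer past 2-fold, among them Saa3, Cebpd, Cd5l, Hspa1b, Bag3 and Hars. No paired analysis was possible because each group is 1 array. Signal over background limits dim genes: 4.75% of kept genes were at the floor at CT14 and 6.87% at CT02.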

Other observations

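Of 18 genes of antigen presentation and the interferon response 7 were higher and 11 lower at CT14, with a median of -0.12. At least 2-fold higher were 2 (the background was 3.53%), both interferon-inducible GTPase genes. Igtp read 4862 units at CT14 and 2233 at CT02, and Ifi47 1486 at CT14 and under the floor at CT02 (574). Irgm1, of the same family, had a log2 ratio of 0.50. The antigen-presenting genes Cd74 and Psmb8 had ratios of -0.54 and -0.46. RNA handling genes held some of the widest single ratios: Snrpb, of the spliceosome, read 759 at CT14 and 4348 at CT02, Nxf1, an mRNA export factor, 639 and 2707, and Hnrnpl 2486 at CT14 and under the floor at CT02 (559), although the 34 genes of that list had a median of -0.02. Cyp17a1, a steroid hydroxylase gene, read 5279 at CT14 and 2744 at CT02, and Apoa4, an apolipoprotein gene, 15196 and 10676.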
